A study of Mus musculus with 6 samples.

Results

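The serine, glycine and one-carbon enzyme genes are 9 rows of a table of 15861 genes that lists read counts for germinal centre B cells of mice with and without a conditional deletion of Lsd1. The rule names the genes, namely Phgdh, Psat1, Psph, Shmt1, Shmt2, Mthfd1, Mthfd1l, Mthfd2 and Gcat, and all 9 were found. They were listed with the contrast of KO against WT in view, so their differences between the groups are given here as a description, without a test, and support nothing. The KO group held 3 libraries from C57BL/6 mice with Cgamma-cre+/- and Lsd1 f/f alleles. The WT group held 3 libraries from littermates with the same Lsd1 f/f alleles and no Cre, so floxed Lsd1 is shared by both groups and an effect of Cre itself cannot be told apart from one of the deletion. Each library is polyadenylated RNA of 1 mouse, from cells sorted as B220+, GL7+ and FAS+. The sources used here give no ages and no immunisation.

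These enzymes make serine and glycine and load carbon units from them onto folate. Phgdh, Psat1 and Psph encode the consecutive steps from the glycolytic intermediate 3-phosphoglycerate to serine. Serine hydroxymethyltransferase, encoded by Shmt1 in the cytosol and Shmt2 in mitochondria, turns serine into glycine and passes a carbon unit to tetrahydrofolate. Mthfd2 and Mthfd1l carry that unit to formate in mitochondria and Mthfd1 takes formate up in the cytosol, where the unit serves purine and thymidylate synthesis. Gcat encodes the mitochondrial glycine C-acetyltransferase, which forms glycine at the end of threonine breakdown. Germinal centre B cells divide quickly and so draw on nucleotide synthesis.

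The promoters of Gcat, Shmt2 and Psat1 are shown because these were the 3 genes whose KO libraries all lay below all WT libraries. Each sequence is the 250 bases before the transcription start in RefSeq on GRCm38.p6, the assembly of mm10, read 5′ to 3′ on the strand of the gene. The Gcat window is chr15:79030624-79030873 on the plus strand, the Shmt2 window is chr10:127522445-127522694 on the minus strand and the Psat1 window is chr19:15925060-15925309 on the minus strand. Psat1 has another RefSeq start, whose window is not shown. Capitals mark a GC box (GGGCGG) or a CCAAT box on either strand.
Gcat: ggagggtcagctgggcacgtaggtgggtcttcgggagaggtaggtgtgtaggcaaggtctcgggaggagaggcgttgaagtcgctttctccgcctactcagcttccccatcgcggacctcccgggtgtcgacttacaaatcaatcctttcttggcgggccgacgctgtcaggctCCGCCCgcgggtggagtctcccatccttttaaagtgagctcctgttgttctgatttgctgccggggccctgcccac
Shmt2: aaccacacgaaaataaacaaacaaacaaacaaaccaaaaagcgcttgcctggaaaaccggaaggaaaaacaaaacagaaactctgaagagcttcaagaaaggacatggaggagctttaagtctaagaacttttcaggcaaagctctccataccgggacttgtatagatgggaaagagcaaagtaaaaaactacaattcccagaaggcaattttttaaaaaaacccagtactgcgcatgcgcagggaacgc
Psat1: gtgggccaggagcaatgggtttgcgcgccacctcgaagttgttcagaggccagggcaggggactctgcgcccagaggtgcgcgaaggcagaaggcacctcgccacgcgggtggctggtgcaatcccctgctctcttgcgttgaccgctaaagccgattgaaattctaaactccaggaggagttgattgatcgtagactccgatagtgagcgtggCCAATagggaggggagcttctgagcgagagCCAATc

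Gcat held a GC box and no CCAAT box, the Psat1 window shown held 2 CCAAT boxes and no GC box, and Shmt2 held neither. Of the 10 RefSeq windows of the 9 genes, all of which were matched by symbol, 6 held a CCAAT box and 6 a GC box. Each motif was thus found in 6 genes, with Psat1 counted for both through different windows. Among all 32851 mouse windows of this length, 33.8% held the CCAAT box and 32.7% the GC box. The letters TGATGNAA, taken for the composite site of ATF4 and C/EBP factors, were in 0 of the 10 windows, against 3.45% of all windows. The E-box CACGTG was in 0 of the 10, against 6.02% of all windows. The core TGACNNNGC of the antioxidant response element was in the Phgdh window alone, against 10.2% of all windows. All motifs were searched on both strands. No motif searched contains another. These matches describe letters in a window of 250 bases, and they say nothing about binding.

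The KO libraries held 12325300 to 14327654 counts and the WT libraries 3390805 to 5524852, so depth and genotype cannot be told apart. Kdm1a, the gene of Lsd1, was read at 81.9, 33.0 and 21.8 TMM-normalised CPM (counts scaled to the size of the library) in KO 1, KO 2 and KO 3, against 134, 85.2 and 92.6 CPM in the WT libraries. KO 1 thus lay next to the lowest WT library, and the values of Gcat and of the median over the 9 genes are also given without it. The 10 B cell and germinal centre markers summed to 5930 to 8200 CPM of the library total in KO and 7500 to 10300 in WT, with Cd79a at 791 to 828 CPM in KO and 842 to 1220 CPM in WT. The 20 macrophage markers, all present in the table, summed to 757, 785 and 5030 CPM in KO 1, KO 2 and KO 3, against 1070, 2180 and 4070 CPM in the WT libraries. T cell markers, of which 11 of 12 were in the table, summed to 158 to 215 CPM in KO and 180 to 250 CPM in WT, nearly all of it Lck, which had 139 to 185 TMM-normalised CPM in KO and 187 to 255 in WT and so sets this sum. Cd3d had at most 15 counts in any library. The 7 plasma cell markers summed to 2540 to 3240 CPM in KO and 2220 to 3220 CPM in WT, most of it Jchain and Mzb1. Of the less abundant ones, Irf4 had 104, 49.3 and 85.5 TMM-normalised CPM in KO, against 46.7, 30.5 and 34.3 in WT, with all KO libraries above all WT libraries. Prdm1 had 26.9, 3.18 and 14.3 in KO, against 4.20, 3.13 and 1.56 in WT. Irf4 and Prdm1 were the 2 plasma cell markers with an unadjusted p under 0.05, and their part in the values of the 9 genes was not tested. The other tested plasma cell markers did not follow them. Mzb1 had a log2 fold change of KO over WT of -0.47 (SE 0.23) and Sdc1 of -0.09 (SE 0.42). For Xbp1 it was 0.03 (SE 0.20) and for Jchain 0.13 (SE 0.28). None of the tested markers in these lists passed the edgeR test over all genes after adjustment. In bulk RNA, fewer cells of a type and less RNA per cell cannot be told apart.

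Gcat showed the widest gap between the groups among the 9 genes. It lies on chromosome 15 from 79030874 to 79038353 on the plus strand of mm10. It was read at 29.8, 42.7 and 31.9 CPM in KO 1, KO 2 and KO 3, against 74.8, 74.1 and 94.1 CPM in WT 1, WT 2 and WT 3. The highest KO library thus lay well below the lowest WT library. The means were 34.8 ± 6.94 CPM in KO and 81.0 ± 11.4 CPM in WT (SD, n = 3 each), and the log2 fold change was -1.22 (SE 0.23). This level is 43.0% of that in WT. Of the 10926 genes tested, 0.522% had a lower log2 fold change. Without KO 1 the value was -1.13 (SE 0.28), and with all libraries thinned to the smallest total it was -1.36 (SE 0.24). Beside these values, the macrophage sum was 757, 785 and 5030 CPM in the KO libraries, against 1070, 2180 and 4070 CPM in the WT libraries, and its part in the Gcat level was not tested. The symbol Gcat covers a second annotated gene on the same strand, which shares 47.5% of the exonic bases. The sources used here do not say how the authors' counting treated such shared bases, so the absolute count of Gcat is less certain.

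**Figure D1:**
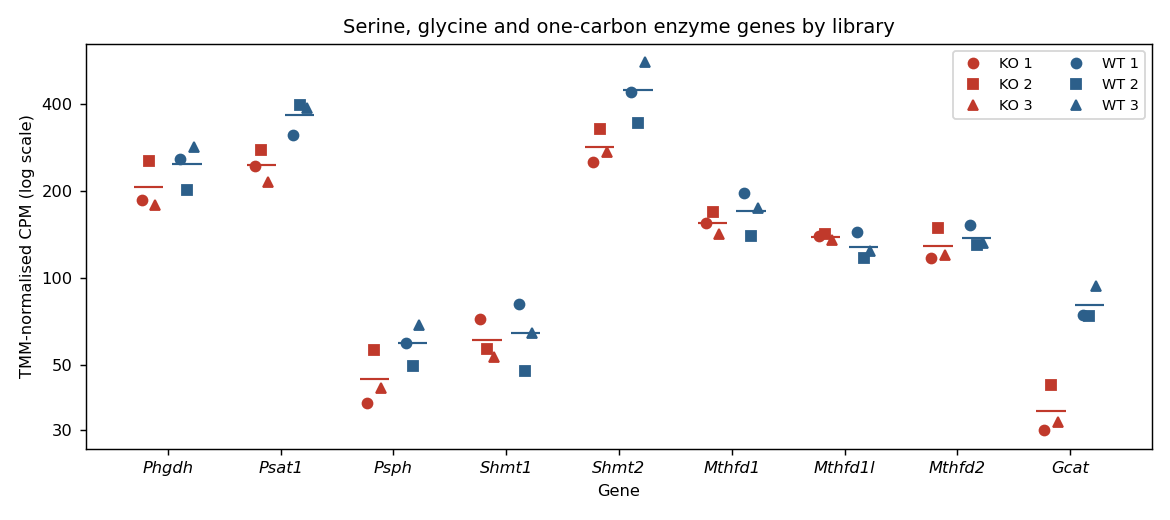
TMM-normalised CPM (log axis) of each of the 9 genes in every library, KO in red left of WT in blue, with 1 symbol per replicate number and a line at each group mean. Gcat, Shmt2 and Psat1 have every KO library below every WT library, while the other 6 genes overlap.

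The genes of serine synthesis lay lower in KO on average, and only the middle step had no overlap between the groups. Psat1 encodes the aminotransferase that moves nitrogen from glutamate onto the serine precursor, and it spans 15904678 to 15947337 on the minus strand of chromosome 19. It was read at 244, 277 and 214 CPM in the KO libraries, against 311, 397 and 387 CPM in the WT libraries, so the groups did not overlap. Its log2 fold change was -0.57 (SE 0.20). Phgdh encodes the dehydrogenase of the first and committed step. It had 186, 254 and 178 CPM in KO, against 257, 202 and 283 CPM in WT, with a log2 fold change of -0.26 (SE 0.22). KO 2 lay inside the WT range for this gene and the other KO libraries below it. Psph encodes the phosphatase that releases serine. It was read at 37.1, 56.4 and 41.6 CPM in KO, against 59.9, 49.6 and 68.9 CPM in WT (log2 fold change -0.40, SE 0.23). Here too only KO 2 reached into the WT range. Phgdh has a processed pseudogene without a row of its own in the table, and how reads matching both were treated is not known. Of the exonic bases of Psph, 10.4% overlap Cct6a on the other strand. Both counts carry that uncertainty. For the strand setting of the counting the sources used here give nothing.

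The mitochondrial and cytosolic serine hydroxymethyltransferase genes differed in how far apart the groups lay. Shmt2 spans 127517123 to 127522444 on the minus strand of chromosome 10. It was read at 252, 328 and 273 CPM in KO, against 437, 343 and 555 CPM in WT. On this scale the highest KO library lay just under the lowest WT library, with means of 284 ± 39.0 CPM in KO and 445 ± 107 CPM in WT (SD, n = 3 each). The log2 fold change was -0.65 (SE 0.23). Shmt1 had 72.4, 57.0 and 53.2 CPM in KO, against 81.2, 47.7 and 64.5 CPM in WT. The groups overlapped fully for Shmt1 (log2 fold change -0.08, SE 0.24), and its sign turned under 3 other settings. In TPM, a level per transcript length within a library, the ratio of Shmt2 to Shmt1 was 4.35, 7.18 and 6.42 in the KO libraries, against 6.72, 8.97 and 10.8 in the WT libraries. The means were 5.98 ± 1.46 in KO and 8.82 ± 2.02 in WT (SD, n = 3 each). Since KO 2 lay above WT 1, the groups overlapped in this ratio. The exons of Shmt1 share 4.7% of their bases with Smcr8 and those of Shmt2 share 1.0% with Ndufa4l2, each on the other strand.

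The folate enzymes sat close together in both groups. Mthfd2 encodes the mitochondrial methylenetetrahydrofolate dehydrogenase and cyclohydrolase. It was read at 117, 149 and 120 CPM in KO, against 152, 130 and 132 CPM in WT (log2 fold change -0.10, SE 0.20). Mthfd1, the gene of the cytosolic enzyme that holds all of these activities together with formate ligation, had 155, 169 and 142 CPM in KO, against 197, 140 and 174 CPM in WT (log2 fold change -0.13, SE 0.21). Mthfd1l encodes the mitochondrial formate-releasing enzyme. It was the 1 gene of the 9 with a positive log2 fold change, 0.12 (SE 0.19), at 140, 142 and 135 CPM in KO, against 144, 117 and 124 CPM in WT. For all 3 genes the groups overlapped. Mthfd2l, the related mitochondrial dehydrogenase gene, had 1 to 5 counts in the KO libraries and 0 to 2 in the WT libraries and was not tested. Within a library, the TPM ratio of Mthfd1l to Mthfd1 was 0.903, 0.841 and 0.954 in KO, against 0.733, 0.835 and 0.716 in WT, and KO 2 and WT 2 almost met. The ratio of Mthfd2 to Mthfd1 averaged 1.05 ± 0.0836 in KO and 1.04 ± 0.122 in WT (SD, n = 3 each).

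**Figure D2:**
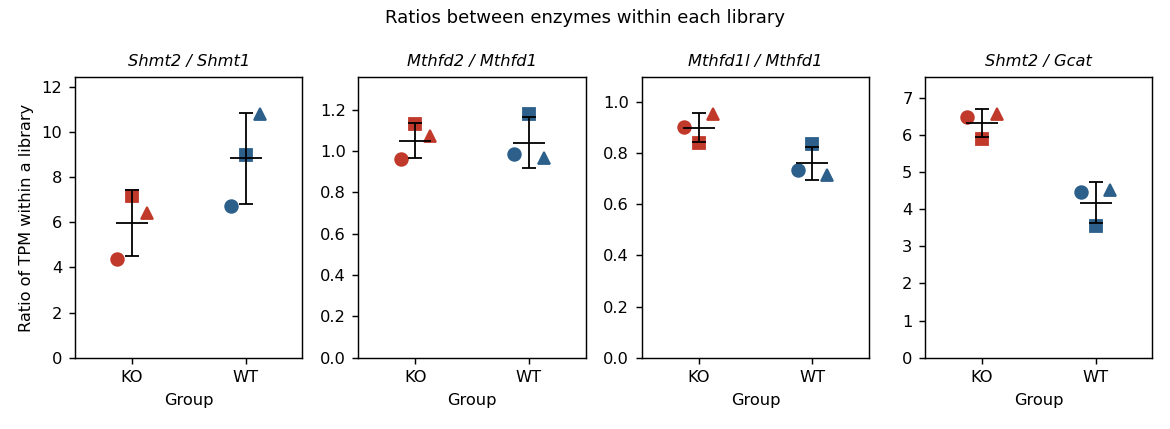
Ratios of TPM between enzyme genes within each library, KO in red left of WT in blue, with 1 symbol per replicate number and black bars at the mean ± SD (n = 3). The ratio of Shmt2 to Gcat is 5.88 to 6.57 in KO and 3.55 to 4.52 in WT, while the ratio of Shmt2 to Shmt1 overlaps between the groups.

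Counted over the 9 genes on the TMM scale, 8 had a log2 fold change below 0, as did 48.7% of all genes tested. In TPM the direction differed, with the KO mean above the WT mean for Mthfd1l, Mthfd1, Mthfd2 and Shmt1. The median log2 fold change of the 9 genes was -0.26, beside 0.01 over all genes tested, and it was -0.235 without KO 1. None of the 9 passed the test over all genes at an adjusted p under 0.05 (edgeR quasi-likelihood test with Benjamini-Hochberg adjustment), which 0.0824% of the 10926 genes passed. At an unadjusted p under 0.05 there were 3 of the 9, against 12.6% of all genes. By DESeq2, Gcat passed as 1 of the 9, where 1.12% of all genes passed, and by limma-voom none did, where 0.0549% passed. Every KO library lay below every WT library for 3 of the 9, as for 7.95% of all genes. Nothing is read from these counts, because the genes were listed with this contrast in view.

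**Figure D3:**
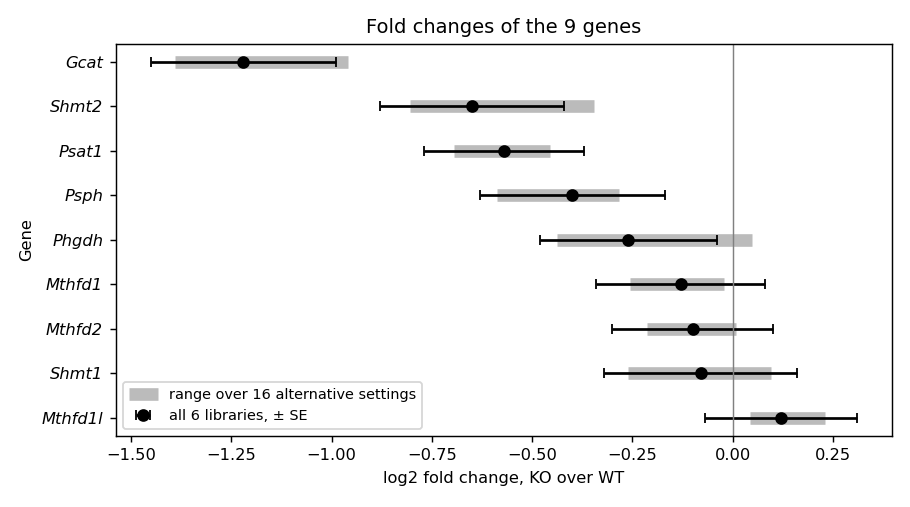
The log2 fold change of KO over WT for each gene (points, with bars of ± 1 SE), ordered from the lowest at the top, over the range of the same value in 16 alternative settings (grey). Gcat at -1.22 lies apart from Shmt2 at -0.65 and Psat1 at -0.57, and only Mthfd1l lies above 0 with all 6 libraries.

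The libraries varied among themselves in ways the genotype does not give. Relative to the WT mean of each gene, the median over the 9 genes was -0.40 in KO 1, -0.06 in KO 2 and -0.46 in KO 3 on the log2 scale, against 0.07, -0.25 and 0.09 in WT 1, WT 2 and WT 3. KO 2 was thus nearer to the WT mean than WT 2 was. In WT 2, 8 of the 9 genes lay below the WT mean, the exception being Psat1, and in KO 2 5 did. The 9 genes together took 1320, 1460 and 1270 CPM of the library total in KO, against 1720, 1390 and 1780 CPM in WT, so the sums overlapped between KO 2 and WT 2. Gcat departed from this pattern, since it lay 0.91 below the WT mean in KO 2 and 0.12 below it in WT 2. Psat1 departed from it as well, with -0.39 in KO 2 and 0.13 in WT 2, while Shmt2 had -0.41 and -0.35.

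Per transcript length, Shmt2 and Phgdh stood highest and Psph lowest. Next above Psph came Gcat in KO and Shmt1 in WT. Shmt2 averaged 314 ± 17.0 TPM in KO and 423 ± 96.6 TPM in WT (SD, n = 3 each). Phgdh averaged 283 ± 28.7 TPM in KO and 295 ± 53.9 TPM in WT, and Psat1 198 ± 11.9 TPM in KO and 252 ± 16.4 TPM in WT. These genes were followed by Mthfd2 with 127 ± 5.11 TPM in KO and 118 ± 19.4 TPM in WT and by Mthfd1 with 120 ± 5.42 TPM in KO and 114 ± 26.3 TPM in WT. Mthfd1l came next in KO at 108 ± 8.51 TPM, against 86.0 ± 15.8 TPM in WT. Gcat stood below it in KO, at 49.9 ± 5.02 TPM, and above it in WT, at 100 ± 11.0 TPM. Shmt1 averaged 54.4 ± 11.7 TPM in KO and 49.7 ± 16.2 TPM in WT, and Psph 35.5 ± 4.56 TPM in KO and 40.7 ± 6.79 TPM in WT. Of neighbours in this order, the libraries of Shmt2 and Phgdh overlapped in both groups, as did those of Mthfd2 and Mthfd1. Shmt1 and Gcat overlapped in KO. In WT, Phgdh and Psat1 overlapped, as did Mthfd1 and Gcat, Gcat and Mthfd1l, and Shmt1 and Psph. On this scale Shmt2 had 294, 325 and 322 TPM in the KO libraries, against 451, 315 and 502 TPM in the WT libraries, so WT 2 lay below 2 of the KO libraries and the groups overlapped. Gcat and Psat1 kept all KO libraries below all WT libraries in TPM as well. With the longest transcript as the length, Psat1 stood above Phgdh in WT at 298 and 281 TPM, and Gcat stood below Mthfd1l in WT at 73.2 and 75.2 TPM. In KO, Gcat then stood below Psph, at 36.6 and 38.9 TPM.

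**Figure D4:**
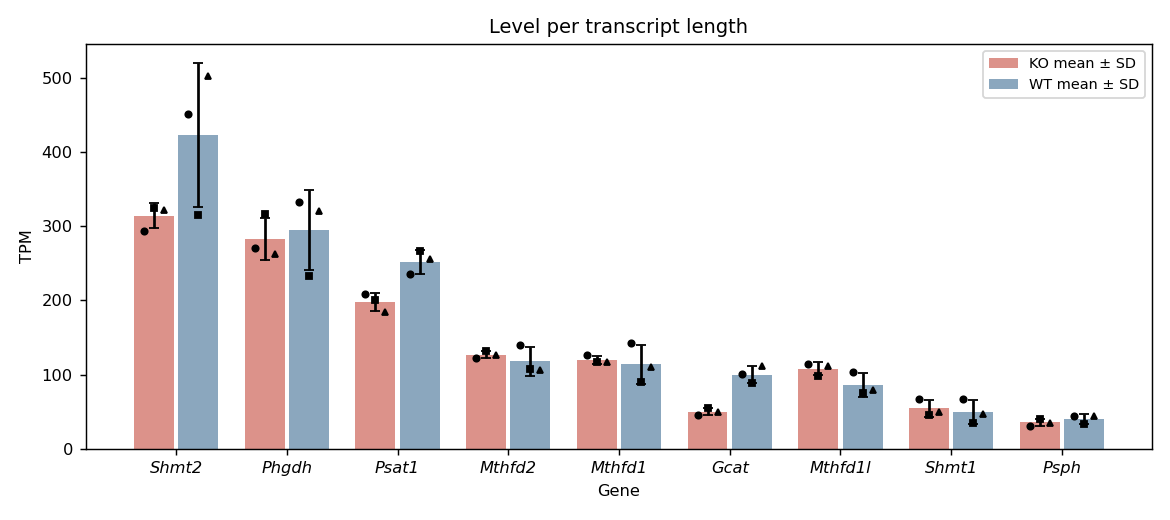
TPM of the 9 genes, ordered by their WT mean, as bars of the mean ± SD (n = 3) with 1 black symbol per library, KO in red left of WT in blue. The top 3 genes by level are Shmt2, Phgdh and Psat1, and Gcat is at 49.9 TPM in KO and 100 TPM in WT.

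The surrounding pathway was read from 7 lists of 115 genes, of which 105 were in the table and 89 passed the filter on low counts. None of the 89 passed the edgeR test over all genes, and 11 had an unadjusted p under 0.05, or 12.4% of them beside 12.6% of all genes. Of these 11, 5 were higher and 6 lower in KO. By limma-voom none of the 89 passed, and by DESeq2 Ahcyl2 did. Tdh, the gene of threonine dehydrogenase, which feeds Gcat, had no row in the table, so no level is given for it.

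In the folate list, 9 genes were tested, with a median log2 fold change of -0.02. Tyms, the thymidylate synthase gene, had 118, 107 and 85.6 CPM in KO, against 99.5, 141 and 107 CPM in WT. It was highest in WT 2, and the groups overlapped. Slc25a32, the mitochondrial folate carrier gene, had a log2 value of 0.33 (SE 0.33). Fpgs, whose product adds glutamates that keep folates in the cell, had -0.33 (SE 0.25).

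Among 12 tested genes of glycine cleavage and other serine and glycine enzymes the median was -0.24. Gcsh, the carrier protein gene of the glycine cleavage system, had a log2 value of -0.29 (SE 0.24), and Glyctk, a glycerate kinase gene, -0.27 (SE 0.33). Gatm, which uses glycine for creatine synthesis, had 0.25 (SE 0.24) and Got1, the cytosolic aspartate aminotransferase gene, 0.21 (SE 0.24). Among 11 transporter genes the median was 0.09. Sfxn3, of the sideroflexin family of mitochondrial serine carriers, had 0.51 (SE 0.38) and the neutral amino acid transporter gene Slc38a2 had 0.37 (SE 0.22). Slc25a38, the mitochondrial glycine carrier gene, had -0.18 (SE 0.22), and Slc3a2, the heavy chain gene of several amino acid exchangers, -0.15 (SE 0.21). None of these values passed, and each lies within about 2 standard errors of 0.

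The methionine cycle, transsulfuration and glutathione list had 14 tested genes and a median of 0.01. Ahcyl2, a relative of S-adenosylhomocysteine hydrolase, was read at 49.3, 31.8 and 45.4 CPM in KO, against 22.3, 13.9 and 12.5 CPM in WT, with every KO library above every WT library. Its log2 fold change of 1.38 (SE 0.28) did not pass (edgeR adjusted p = 0.117). It ran from 1.14 to 1.66 over all settings and passed in 3 of the 16 alternatives. Ahcyl1, its close paralogue, had 0.66 (SE 0.28), and Ahcy, the hydrolase gene itself, -0.27 (SE 0.21). Gss, the glutathione synthetase gene, which adds glycine, had -0.49 (SE 0.27). In purine synthesis, which takes glycine and folate units, 11 of 15 tested genes lay below 0 with a median of -0.05. Adss, of the branch to AMP, had 0.50 (SE 0.21) and Gmps, of the branch to GMP, 0.24 (SE 0.26). Aprt, a salvage enzyme gene, had -0.47 (SE 0.24) and Adsl, of the branch to AMP and the main pathway, -0.38 (SE 0.21).

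Phgdh, Psat1, Shmt2 and Mthfd2 are known targets of ATF4, the transcription factor of the amino acid response. Other genes of that response had a median of -0.27 over 21 tested members, 16 of them below 0. At an unadjusted p under 0.05, 5 of the 21 were lower in KO, as were 5.5% of all genes, and none passed after adjustment. Asns, which makes asparagine, was read at 27.3, 42.9 and 25.0 CPM in KO, against 57.8, 51.2 and 50.5 CPM in WT, a log2 difference of -0.74 (SE 0.25) that did not pass (edgeR adjusted p = 0.284). Eif4ebp1, a translation inhibitor gene, had 20.7, 34.3 and 24.7 CPM in KO, against 46.2, 38.1 and 49.6 CPM in WT, a log2 difference of -0.75 (SE 0.25) with the same adjusted p in edgeR. In both, all KO libraries lay below all WT libraries and KO 2 was the highest of its group. Atf4 itself had 322, 409 and 274 CPM in KO, against 379, 325 and 326 CPM in WT (log2 fold change -0.03, SE 0.21). Among the genes of this response above 0 were Nars, an aminoacyl-tRNA synthetase gene, at 0.25 (SE 0.19) and Ddit4 at 0.13 (SE 0.26). The other aminoacyl-tRNA synthetase genes in the list all lay below 0, from -0.51 to -0.10. The glycolysis genes around 3-phosphoglycerate, of which 7 were tested, had a median of -0.27. Tpi1 had -0.58 (SE 0.21), Gapdh -0.37 (SE 0.21) and Pgk1, whose enzyme forms 3-phosphoglycerate, 0.03 (SE 0.20).

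**Figure D5:**
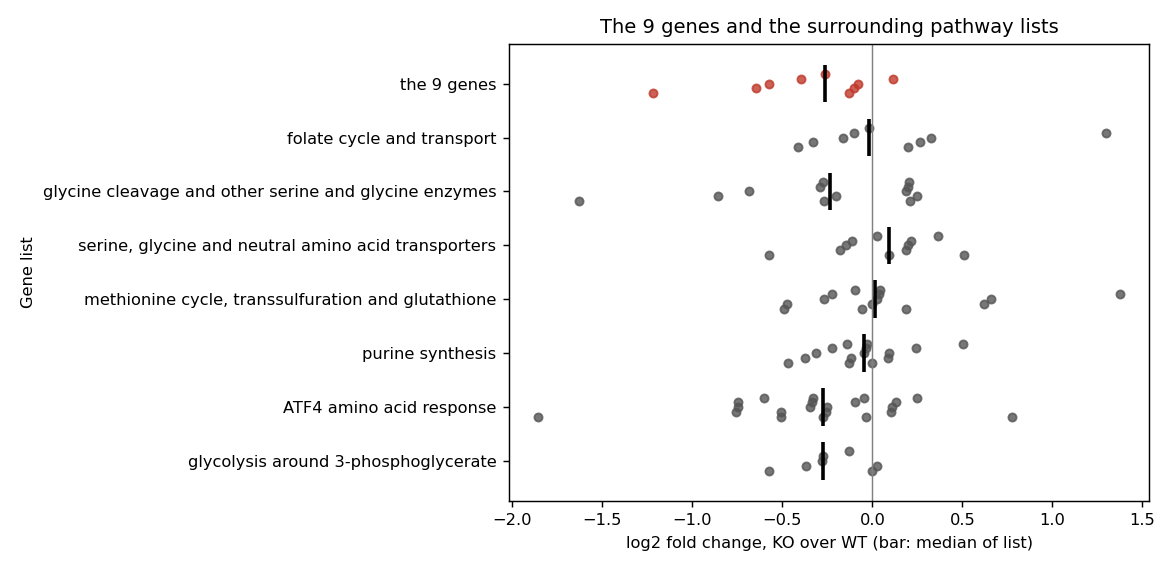
The log2 fold change of KO over WT for each tested gene of the 9 (red) and of the 7 surrounding lists (grey), with a black bar at each median. The medians run from -0.27 to 0.09, and no gene shown passed the test over all genes.

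By likeness over the 6 libraries, the genes closest to Gcat were Tmco6, Vdac1, Arl5c, Hras and Tuba1b, chosen from 8388 genes by the Pearson correlation of log2 CPM. Their correlations ran from 0.987 to 0.996 and are descriptive, since these genes share libraries and depth with Gcat and the 5 were chosen for them. Their log2 fold changes ran from -0.95 for Hras to -0.54 for Vdac1, each smaller in size than that of Gcat, and none passed the test. Vdac1 encodes a channel of the outer mitochondrial membrane and was read at 152 to 185 CPM in KO and 223 to 259 CPM in WT.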

How the data were processed

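Polyadenylated RNA of 6 libraries, 3 KO and 3 WT, was analysed from 1 table of unnormalised read counts that the authors deposited. Reads were processed on mm10 with CASAVA, with STAR in version 2.5.2 and with featureCounts in version 1.5.2, per the submitters' processing notes. The sources used here give neither annotation nor strand setting. The whole table was fitted in R 4.3.3 by edgeR 4.0.16 (filterByExpr, TMM, robust glmQLFit and glmQLFTest, two-sided, Benjamini-Hochberg over 10926 genes). The common biological coefficient of variation was 30.8%. Each standard error was taken from the F statistic. DESeq2 1.42.0 and limma-voom (limma 3.58.1) were alternatives, as were other scalings and filters, a replicate block, thinning, removal of a length and GC trend, and leaving out each library. The edgeR, DESeq2 and limma-voom fits were tested on simulated data. In that order, 34.0%, 47.0% and 21.0% of simulated 2-fold changes passed, and 89.0%, 93.0% and 88.0% of 4-fold changes. Unchanged genes made up 8.89%, 13.0% and 9.17% of the genes passing. TPM used the union of GENCODE vM21 exons, with 98.0% of genes matched by symbol. For symbols with several annotated genes the lowest gene ID was used.

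In KO libraries 1 count equals 0.0698 to 0.0811 CPM, and in WT libraries 0.181 to 0.295 CPM. The genes and lists were chosen with earlier results of these data known. Named were the 9 genes, Kdm1a, and from each list any gene that passed or else up to 2 in each direction, those farthest from 0 at a mean log2 CPM of at least 3. Atf4 and Tyms were named in any case, as were 5 genes by likeness to Gcat, and some genes within this rule are not reported here. No library pair of a group looked like repeats of 1 library, with a chi-square per degree of freedom of 14.4 to 50.9.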

Additional observations from a re-analysis of the deposited data

How the results depend on the processing

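Over 16 alternatives, 140 of 144 values of the 9 genes moved by less than the SD between replicates. The 4 that moved further were Mthfd1l at 0.23 with library size alone, a scaling that raised the median of all genes to 0.134, and Phgdh at 0.05, Shmt2 at -0.35 and Gcat at -0.96 with the trend on length and GC taken out. The sign turned in 5 cases, namely that value of Phgdh, Shmt1 with library size alone (0.03), after thinning (0.05) and without WT 1 (0.10), and Mthfd2 with library size alone (0.01). For these reversals the cause was not tested. TPM is not among the 16 alternatives, and in TPM the KO means of Mthfd1l, Mthfd1, Mthfd2 and Shmt1 lay above their WT means. The median of the 9 genes lay between -0.44 and -0.12. Gcat ran from -1.39 to -0.96 and passed in 3 of the 16, namely with no filter, by DESeq2 and after thinning.

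The number of genes passing over all genes was 9. It was 18 with library size alone, 93 with no filter, 122 by DESeq2 and 28 with that trend taken out, and 1 to 24 when a library was left out (1 if WT 2 or WT 3 is left out, 3 if KO 2, 18 if KO 3 and 24 if KO 1). For these counts the cause was not tested. Of the surrounding lists 0 genes passed in edgeR, and 1 passed with no filter and by DESeq2, and 0 to 1 when a library was left out, each time Ahcyl2. With the replicate number as a block (replicate block) 21 genes passed, and the values of the 9 genes kept their sign. Deviations from the group means correlated at 0.341, -0.0525 and 0.443 for replicates 1, 2 and 3. KO 1 and KO 3 correlated best with the WT library of their own number, while KO 2 correlated best with WT 1. The labels do not say that a number marks a litter or day, and the shared numbers were not taken as pairs. With the longest transcript as the length, chosen after seeing the data, the KO mean was 235 TPM for Psat1, 154 for Mthfd2, 94.9 for Mthfd1l and 36.6 for Gcat. After thinning to the smallest library total, the SE of Gcat was 0.236, against 0.225 at full depth.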
